A study of Homo sapiens with 6 samples.

Results

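The comparison described here set NCI-H929 cells electroporated with small interfering RNA (siRNA) against RRM1 beside the same cells given a scramble siRNA, a control without the RRM1 target. NCI-H929 is an established human myeloma line, grown in culture with no other treatment named. RNA was taken after 24 h and hybridized to oligonucleotide arrays. The members were chosen by label alone: 4 of the 6 arrays of the series, 2 labelled siRRM1 and 2 labelled scramble, with every probe set that carried enough signal. The other 2 arrays came from cells given siRNA against RRM2, and they entered the fit and served as a second reference. Nothing in the labels tells whether replicate arrays stem from separate cultures. The p-values therefore cover the spread between these arrays only, which may be technical.

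RRM1 encodes the large, catalytic and regulatory subunit of ribonucleotide reductase, which joins a small subunit such as RRM2 to turn ribonucleotides into the deoxyribonucleotides needed for DNA replication and repair. The enzyme limits the supply of DNA precursors, and drugs that block it stall replication forks. Cultured myeloma cells divide and so depend on it.

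A signal below is the authors' log2 value, a difference is siRRM1 minus scramble on that scale, and a probe set is a group of oligonucleotides that reads one transcript or several. Called means an adjusted p under 0.05 (limma, Benjamini-Hochberg over all probe sets tested), and rose and fell are used only of called probe sets. The control probe sets that compare the 3′ with the 5′ end of a transcript were highest in siRRM1 replicate 2 for 3 of the 4 spiked bacterial transcripts (DapX at 1.82, LysX at 1.73 and PheX at 1.97). For ACTB the highest value was in scramble replicate 1 (0.34). Replicate arrays correlated across tested probe sets at r = 0.992 to 0.996, and probe sets are not independent replicates.

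The target itself was lower in both siRRM1 arrays. Probe set 201477_s_at of RRM1 read 11.06 and 11.11 in scramble and 8.93 and 7.99 in siRRM1, a difference of -2.63 (SE 0.27, limma adjusted p = 0.00289). The second RRM1 probe set, 201476_s_at, read 8.95 and 9.20 in scramble and 7.03 and 5.90 in siRRM1. Replicate 2 was the lower siRRM1 array on both, and neither overlapped with scramble. RRM2, the small subunit, read 12.51 and 12.59 in scramble and 12.81 and 12.70 in siRRM1 on probe set 209773_s_at, which did not pass the test (difference 0.21, SE 0.17, adjusted p = 0.450). Among the 19 tested genes that make or balance deoxyribonucleotides, 4 rose and 1 fell, with a median difference of -0.03. Over all genes tested 7.11% rose and 5.66% fell, and the 1 fall here is the knockdown target, RRM1. The risen ones included GLRX, a glutaredoxin that can hand electrons to the reductase (0.62, adjusted p = 0.0154), TK1, the thymidine salvage kinase (0.63, adjusted p = 0.0159), and TYMS, which makes thymidylate (0.41, adjusted p = 0.0328). Of the 4 rises, 0 were called without siRRM1 replicate 2, 1 without scramble replicate 1 or scramble replicate 2, and 2 without either siRRM2 array.

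Across the array, RRM1 knockdown gave about as many rises as falls, but the rises were larger. Of 13308 probe sets tested, 854 rose (6.42%) and 765 fell (5.75%), 12.2% in all. The median size was 0.67 for a rise (1.59-fold) and 0.54 for a fall (1.45-fold). At least 2-fold, there were 183 rises (1.38%) and 29 falls (0.218%), and at least 4-fold there were 29 rises and 2 falls, both of RRM1. Tested for a change of more than 1.5-fold, limma's treat called 67 probe sets (0.503%), 63 higher (0.473%) and 4 lower (0.0301%). That count was 23 without siRRM1 replicate 2, 40 without scramble replicate 1 and 37 without scramble replicate 2. Those 4 were the 2 RRM1 probe sets, LAMP2, a lysosomal membrane protein, and PSRC1, a spindle protein. After median centring of the arrays, 747 rose and 1073 fell, so the balance of directions depends on the scaling. The arrays of the groups did not overlap for 26% of probe sets on the higher side and 31.4% on the lower side, so absence of overlap was common in both directions. Without siRRM1 replicate 2, the calls came to 298 higher and 88 lower, and without siRRM1 replicate 1 to 816 higher and 1187 lower. Without scramble replicate 1 they were 314 and 104, without scramble replicate 2 they were 441 and 235, and without either siRRM2 array 580 and 343.

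**Figure D1:**
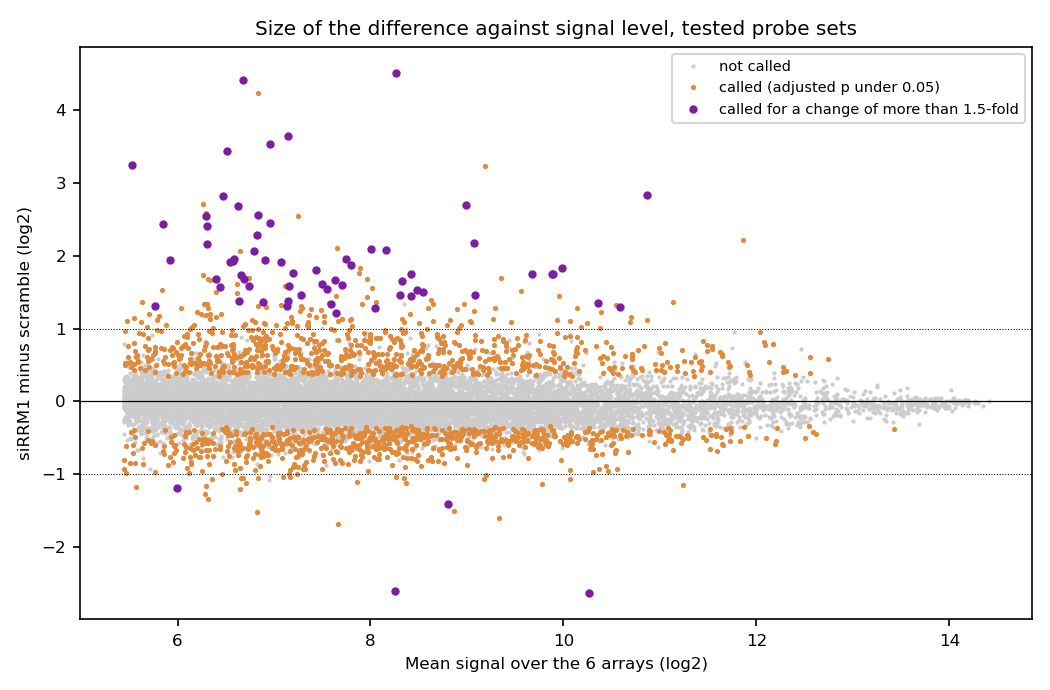
Difference between siRRM1 and scramble (log2, vertical axis) against the mean signal over the 6 arrays (log2, horizontal axis) for 13308 tested probe sets. Dotted lines mark a 2-fold change. The 183 rises of at least 2-fold spread from the lowest signals upward, the 29 falls of that size are few, and of the 67 probe sets called for more than 1.5-fold 63 lie above 0.

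Rises and falls also started from different levels. The median scramble signal was 7.33 for probe sets that rose, 8.54 for those that fell and 7.83 for all tested. Of those that rose, 7.49% had a scramble mean below the filter of 5.44, and such probe sets were tested only because another group lifted their mean. With the probe sets cut by mean signal into 3 equal bins, 272 rose and 165 fell in the lowest bin, 326 and 310 in the middle bin, and 256 and 290 in the highest bin. The 2-fold rises numbered 70, 74 and 39 in these bins and the 2-fold falls 12, 8 and 9.

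The size of the response differed between the siRRM1 arrays. Of the probe sets that rose, 66.3% read higher in siRRM1 replicate 2 than in replicate 1, against 44.9% of all tested. Of those that fell, 81.8% read lower in replicate 2, against 55.1% of all tested. RRM1 itself was left at 22.4% of the scramble mean in replicate 1 and 11.7% in replicate 2 on probe set 201477_s_at. The part of the deeper knockdown, or of the 3′ to 5′ control values, in this difference was not tested.

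**Figure D2:**
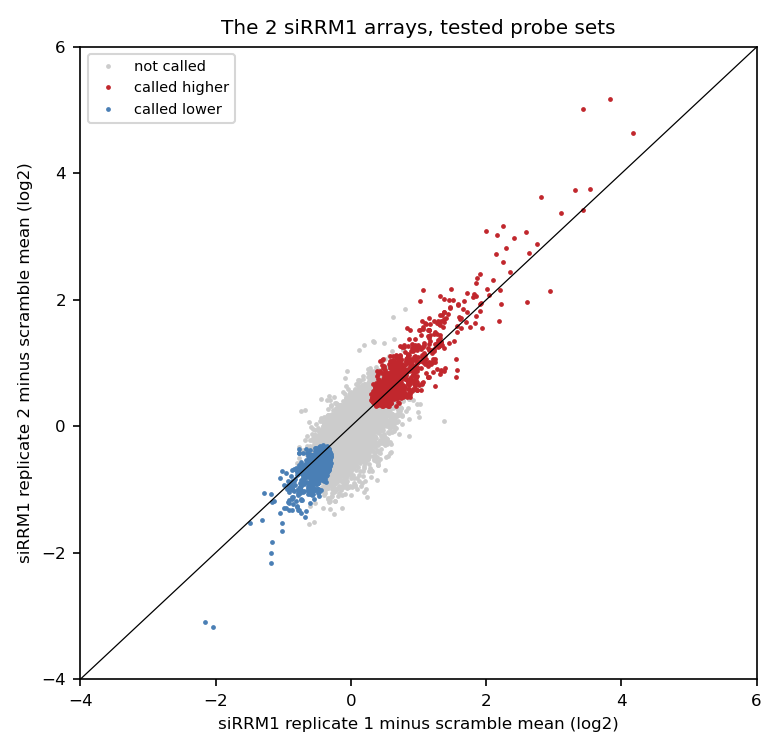
Difference of siRRM1 replicate 1 (horizontal axis, log2) and of siRRM1 replicate 2 (vertical axis, log2) from the mean of the scramble arrays, one point per tested probe set, with the line of equality. Of the called points, 66.3% of the rises lie above the line and 81.8% of the falls lie below it.

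The 30 largest rises among single-gene probe sets ranged from 1.83 to 4.50 and started from a median scramble signal of 5.57. Of these, 14 had a scramble mean below the filter and were tested only through the groups where they were high: FAS, FCGR2B, GDF15, GNLY, HSD11B1, IL10, IL17A, LAPTM5, LPXN, PTPRC, S100A8, SORL1, TNC and TNFSF9. A difference of such a gene is favoured by that choice, so the counts that follow are descriptions. Of the 30, 25 kept their call when any 1 of the 6 arrays was left out (12 of the 14 and 13 of the other 16), and 22 were called for more than 1.5-fold. All 8 genes among them with several tested probe sets rose on each one. The list held secreted and surface signalling proteins, leukocyte proteins and stress genes.

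Among ligands, IL10, an anti-inflammatory cytokine, read 4.71 and 5.41 in scramble and 8.59 and 8.81 in siRRM1 (difference 3.64, SE 0.23, limma adjusted p = 0.000744). TNFSF9, the 4-1BB ligand that costimulates T cells, read 5.10 and 5.19 in scramble and 7.77 and 7.88 in siRRM1 (2.68, SE 0.11, adjusted p = 0.000195). CCL1, a chemokine, read 5.63 and 5.74 in scramble and 7.88 and 7.35 in siRRM1 (1.93, SE 0.16, adjusted p = 0.00187). In each of these the siRRM1 arrays lay together and well clear of scramble, and the siRRM2 arrays lay between them or, for CCL1, beside them. GPR35, a G protein-coupled receptor, rose from 5.57 and 5.65 to 7.42 and 7.66, a difference of 1.93 (adjusted p = 0.000789). PLXNB2, a semaphorin receptor, rose from 8.22 and 8.27 to 9.54 and 9.86 (1.46, adjusted p = 0.00181).

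SORL1, a sorting receptor of endosomes, gave one of the tightest large rises on probe set 212560_at, from 4.63 and 4.31 to 7.90 and 7.90 (3.43, SE 0.16, adjusted p = 0.000227). LPXN, the adhesion adaptor leupaxin, rose from 5.00 and 5.16 to 7.44 and 7.52 (2.40, SE 0.16, adjusted p = 0.000881). PLK2, a kinase induced by stress, rose from 6.00 and 5.67 to 7.88 and 7.91 (2.06, SE 0.12, adjusted p = 0.000713). These 3 genes kept their calls whichever array was left out, but the filter was set on all 6 arrays in each such fit. SORL1 and LPXN, below the filter in scramble, were thus still tested only through the groups where they were high. MB, myoglobin, was the brightest of the 30 after the change, at 12.75 and 12.97 in siRRM1 against 10.10 and 11.20 in scramble (2.21, SE 0.31, adjusted p = 0.00852). Its scramble arrays lay more than 1 log2 unit apart, and the call was lost without siRRM1 replicate 2 (adjusted p = 0.0597).

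Some rises followed the replicate number in both knockdowns. S100A8, which binds calcium in myeloid cells, read 7.88 and 9.46 in siRRM1 and 6.53 and 8.23 in siRRM2, against 4.45 and 4.44 in scramble. Its partner S100A9 read 7.94 and 9.03 in siRRM1 and 6.74 and 7.91 in siRRM2, against 5.90 and 5.98. GZMB, a protease of cytotoxic granules, read 9.56 and 10.90 in siRRM1 and 8.15 and 9.49 in siRRM2, against 5.56 and 5.89. Replicate 2 was the higher array of each knockdown for all 3 genes, while the scramble arrays did not show that order by a like amount. S100A9 lost its call without siRRM1 replicate 2 (adjusted p = 0.0700), scramble replicate 1 (0.0707) or scramble replicate 2 (0.0525).

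Lists of markers of other cell types hold some of these same genes, so their counts are not independent of the values above. Of 13 T and NK cell markers on the array, 7 were tested, while CD3D, CD3G, CD2, CD247, KLRD1 and GZMA stayed below the filter. Of those tested, CD3E and NCAM1 were not called, and 5 rose (GNLY, TRBC1, GZMB, PRF1 and NKG7). Without siRRM1 replicate 2 or scramble replicate 1, 3 of them rose. The summed linear signal of all 13 was 1790 and 1757 in scramble, 4054 and 5129 in siRRM1 and 2908 and 3157 in siRRM2. Of 9 myeloid markers 3 were tested, and all 3 rose: S100A8, S100A9 and CSF1R (1 without siRRM1 replicate 2, scramble replicate 1 or scramble replicate 2). ITGAM, MPO, CD14, CD163, FCGR1A and LYZ were below the filter, and the summed signal went from 239 and 253 in scramble to 700.3 and 1547 in siRRM1. Of 12 myeloma and plasma cell markers, 1 fell (FGFR3, a receptor kinase, -0.54, adjusted p = 0.0248, but 0.0526 without scramble replicate 1, 0.0967 without scramble replicate 2 and 0.101 without siRRM1 replicate 2) and 0 rose, and their summed signal was 47971 and 43806 in scramble and 39089.5 and 37756 in siRRM1. Among these 12 myeloma and plasma cell markers, 11 had negative differences (median -0.26), and 6 had an unadjusted p under 0.05 (limma). Over all 7936 genes tested the median was -0.01, and 2446 had an unadjusted p under 0.05, with 7.11% called higher and 5.66% called lower. The 3 tested epithelial and 4 tested erythroid markers gave 0 calls (limma), also at an unadjusted p under 0.05. The part of these markers in the rises was not tested, and in such bulk samples fewer cells of a type and less RNA per cell cannot be told apart.

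**Figure D3:**
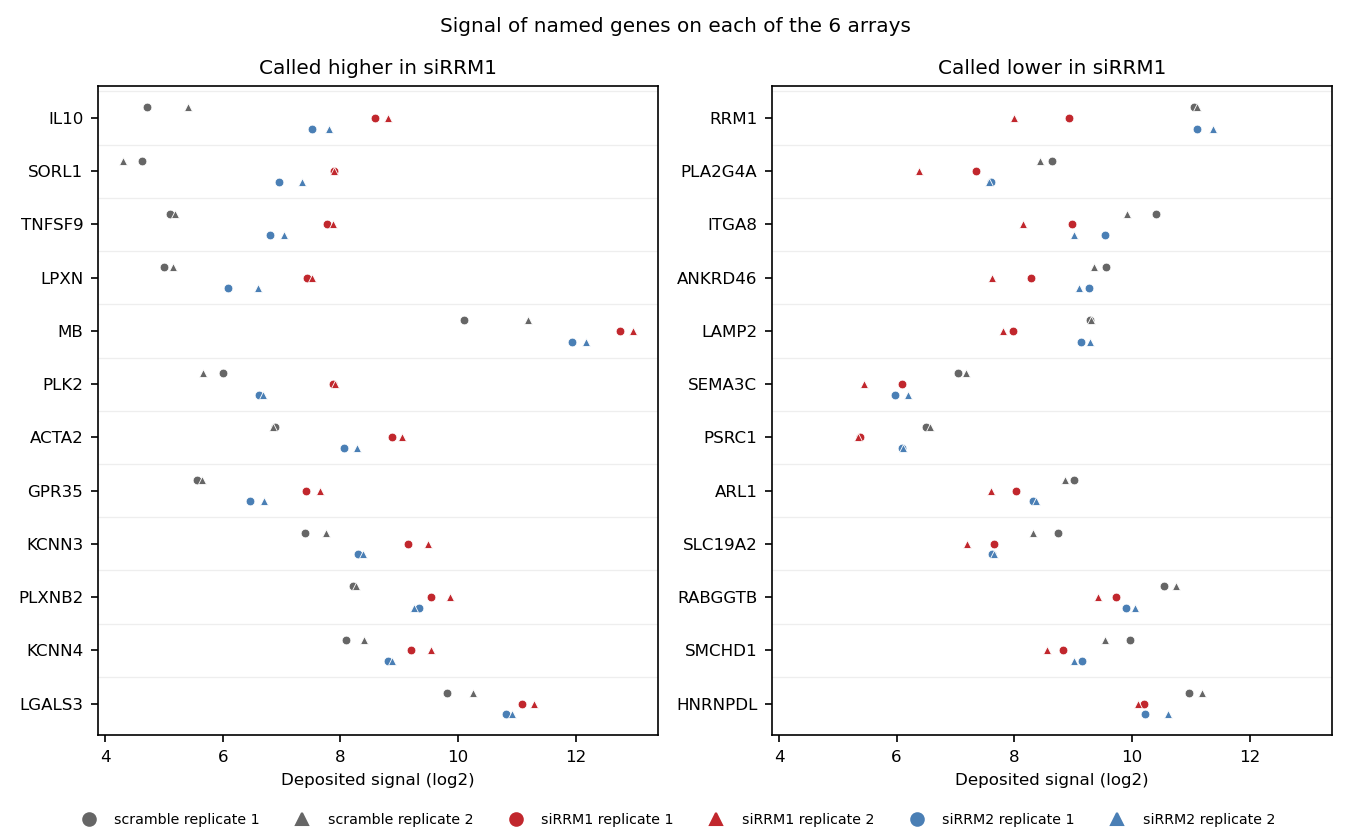
Deposited log2 signal of 12 genes called higher (left) and 12 called lower (right) in siRRM1, with each array as a point: scramble grey, siRRM1 red, siRRM2 blue, replicate 1 as circles and replicate 2 as triangles. All genes drawn were picked as called, and most came from lists that required siRRM1 and scramble arrays not to overlap. Their separation therefore follows from the choice. It was 1.46 on average for PLXNB2 and -2.63 for RRM1. Over all probe sets tested, these arrays did not overlap for 26% on the higher side and 31.4% on the lower side. MB has scramble values of 10.10 and 11.20.

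The 30 largest falls ranged from -2.63 to -0.97, started from a median scramble signal of 7.61, and were less steady. Of these, 14 kept their call when any 1 array was left out. The call count was 16 without scramble replicate 1, 21 without siRRM1 replicate 2 and 23 without scramble replicate 2. Of the 11 genes with several tested probe sets, 6 fell on each one. PLA2G4A, cytosolic phospholipase A2, which frees arachidonic acid from membranes, read 8.65 and 8.44 in scramble and 7.36 and 6.37 in siRRM1 (-1.68, SE 0.28, limma adjusted p = 0.0131, 0.0724 without scramble replicate 1). ITGA8, an integrin subunit, read 10.40 and 9.92 in scramble and 8.98 and 8.15 in siRRM1 (-1.59, SE 0.30, adjusted p = 0.0192). Leaving out scramble replicate 1 (0.0981) or siRRM1 replicate 2 (0.0825) ended that call. The siRRM1 arrays of both genes were below scramble with replicate 2 the lower, and the siRRM2 arrays were below scramble too.

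ARL1, a GTPase of the trans-Golgi, fell on all 3 of its probe sets, with 201657_at at 9.02 and 8.86 in scramble and 8.03 and 7.61 in siRRM1 (-1.12, SE 0.15, adjusted p = 0.00682). SMCHD1, a protein that compacts silenced chromatin, read 9.96 and 9.54 in scramble and 8.82 and 8.56 in siRRM1 (-1.06, SE 0.16, adjusted p = 0.0105, 0.0623 without siRRM1 replicate 2). SLC19A2, a thiamine transporter, read 8.74 and 8.31 in scramble and 7.65 and 7.20 in siRRM1 (-1.10, SE 0.18, adjusted p = 0.0137). The SLC19A2 call ended without scramble replicate 1 (0.0676) and without siRRM1 replicate 2 (0.0673), whereas ARL1 kept its call in every such fit. ANKRD46, an ankyrin repeat protein, was low in siRRM1 and not in siRRM2: it read 9.55 and 9.36 in scramble, 8.29 and 7.62 in siRRM1 and 9.28 and 9.09 in siRRM2. Its difference from siRRM2, -1.23, did not pass the test (adjusted p = 0.128). REL, an NF-kappaB subunit, fell from 6.97 and 6.76 to 5.99 and 5.75 (adjusted p = 0.00507).

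A test of siRRM1 directly against siRRM2 called 5 probe sets (0.0376%), with 1149 at an unadjusted p under 0.05. Besides RRM1 (201477_s_at) and RRM2 (209773_s_at), the knocked-down genes, these were GDF15, a stress-induced cytokine, PLK2 and LAMP2. The other RRM1 and RRM2 probe sets, 201476_s_at and 201890_at, were not among the 5. GDF15 read 8.93 and 9.40 in siRRM1 and 5.90 and 6.31 in siRRM2 (difference 3.06, SE 0.19, limma adjusted p = 0.00399). PLK2 read 7.88 and 7.91 in siRRM1 and 6.61 and 6.68 in siRRM2 (1.24, SE 0.12, adjusted p = 0.0438). LAMP2 (200821_at) read 7.98 and 7.81 in siRRM1 and 9.14 and 9.28 in siRRM2 (-1.32, SE 0.10, adjusted p = 0.0131). GDF15 and PLK2 were higher and LAMP2 lower in siRRM1 than in every array of the other 2 groups. The count was 2 without siRRM2 replicate 1 and 3 without siRRM2 replicate 2.

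LAMP2 also gave the pairs of probe sets with the smallest adjusted p. Probe set 200821_at read 9.29 and 9.30 in scramble and fell to 7.98 and 7.81 in siRRM1 (-1.40, SE 0.10, limma adjusted p = 0.00119). Probe set 203041_s_at read 8.40 and 8.50 in scramble and 8.57 and 8.53 in siRRM1, and 203042_at read 7.24 and 7.18 in scramble and 7.47 and 7.56 in siRRM1. Neither passed the test (adjusted p = 0.562 and 0.107), and the siRRM1 arrays lay at or above scramble on both. The gene encodes a lysosomal membrane protein with alternative last exons, and which exons these probe sets read was not analysed here. The difference between 200821_at and the others was -1.50 and -1.71 (SE 0.11 and 0.12, adjusted p = 0.00272 for both). Set against siRRM2, it was -1.28 and -1.27 (adjusted p = 0.0162 and 0.0222). Without scramble replicate 2 both pairs missed the threshold (adjusted p = 0.0563).

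Such disagreement was rare as a called result. Of 3858 pairs of probe sets of the same gene, 15 pairs of 14 genes were called (0.389%), with 413 at an unadjusted p under 0.05. The count was 4 without scramble replicate 1 or either siRRM2 array, 2 without siRRM1 replicate 2 and 0 without scramble replicate 2. BCL2, an inhibitor of apoptosis, rose on 203685_at from 6.52 and 6.30 to 7.72 and 7.86 (1.38, adjusted p = 0.00171). On 207004_at it read 6.16 and 6.29 in scramble and 5.91 and 6.20 in siRRM1, which overlapped (difference between the probe sets 1.55, SE 0.16, adjusted p = 0.0119). LAPTM5, found in lysosomes of blood cells, rose by 3.53 on 201721_s_at and 2.16 on 201720_s_at, and these differed by 1.37 (SE 0.14, adjusted p = 0.0119). SORL1 rose by 3.43 on 212560_at and 1.76 on 203509_at. The SORL1 probe sets differed by -1.67 (SE 0.22, adjusted p = 0.0348). Of the 6 fits that left out 1 array, 4 called the BCL2 pair, 3 the LAPTM5 pair and 1 the SORL1 pair, with adjusted p up to 0.117 for BCL2 and LAPTM5 and 0.156 for SORL1. All 3 missed the threshold without scramble replicate 2.

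In other pairs one probe set moved and the second stayed near scramble. AGRN, the proteoglycan agrin, rose by 1.02 on 212285_s_at (adjusted p = 0.00266), with a difference of -0.04 on 217410_at. Its other tested probe sets, 212283_at and 217419_x_at, had differences of -0.04 and 0.27 and were not called. APOBEC3G, a cytidine deaminase that restricts retroviruses, rose by 1.12 on 204205_at, with 0.02 on 215579_at. KANK2, an adhesion scaffold, rose by 0.99 on 218418_s_at, with -0.14 on 221068_at. On the second probe set the siRRM1 arrays lay within the range of the scramble arrays for AGRN and APOBEC3G and overlapped it for KANK2. Some of these probe sets were dim. In scramble, APOBEC3G read 10.21 and 10.37 on 204205_at but 5.62 and 6.01 on 215579_at, near the filter of 5.44. AGRN read 5.56 and 5.77 on 212285_s_at and 6.16 and 6.44 on 217410_at. How much transcript such dim probe sets read was not tested. The pair was called in 1 of the 6 fits that left out an array for AGRN and APOBEC3G, and in 0 for KANK2 and HK2. HK2, a glycolytic kinase, fell by 0.56 on 202934_at and had a difference of 0.28 on 222305_at (adjusted p = 0.0869). In the scramble arrays 222305_at read 4.23 and 4.13 below 202934_at. RECK, a membrane inhibitor of metalloproteinases, was the 1 gene with a called rise and a called fall: 216153_x_at rose from 6.41 and 6.40 to 6.92 and 6.88, and 205407_at fell from 8.35 and 8.27 to 7.82 and 7.84 (adjusted p = 0.0269 and 0.0255). Without either scramble array or either siRRM1 array, both RECK calls were lost (adjusted p from 0.0522 to 0.129). Of 528 genes with several tested probe sets and at least 1 call, 133 were called the same way on every one.

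**Figure D4:**
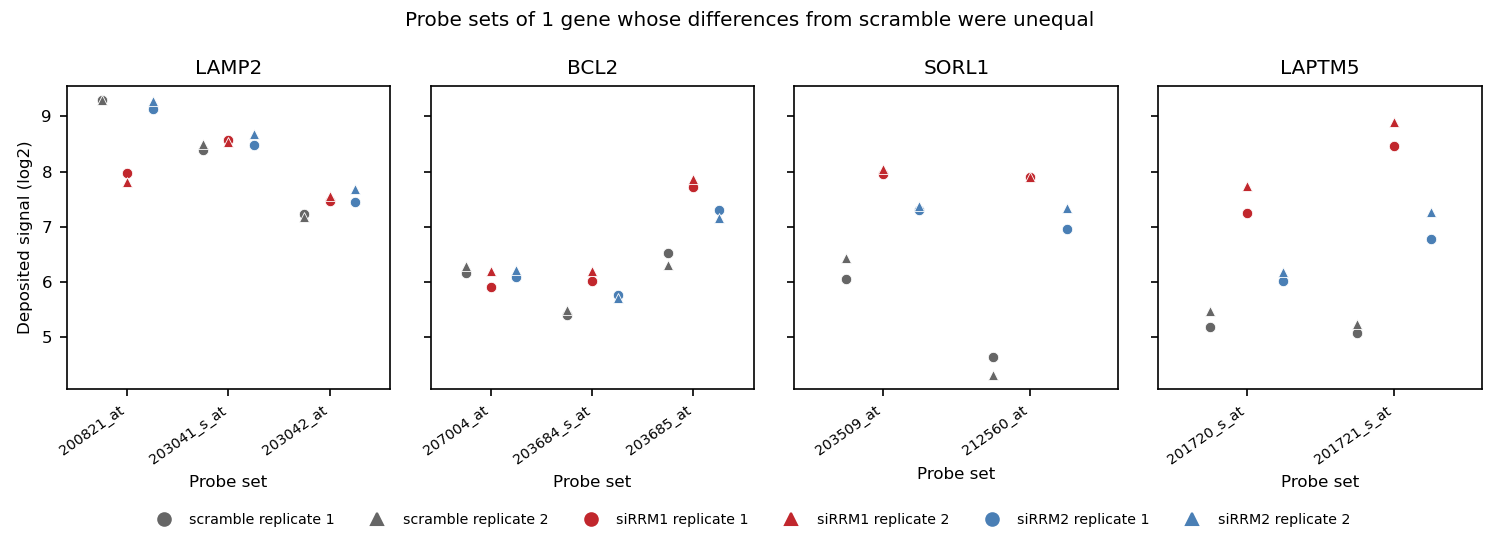
Deposited log2 signal of each tested probe set of LAMP2, BCL2, SORL1 and LAPTM5, with the 6 arrays as points (scramble grey, siRRM1 red, siRRM2 blue, replicate 1 circles, replicate 2 triangles). On LAMP2 200821_at the siRRM1 points, 7.98 and 7.81, lie below all others, while on 203041_s_at and 203042_at they do not. On BCL2 207004_at the groups overlap.

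Gene families were counted with 1 probe set per gene. Of 7936 genes tested, 564 rose (7.11%) and 449 fell (5.66%), with a median difference of -0.01. Of 57 families and lists, 15 had called genes that rose and none that fell, 10 the reverse, 24 both and 8 none. Counts of called members fell in most families when scramble replicate 1 or siRRM1 replicate 2 was left out, so those counts are given with each family.

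Of 38 tested actins, tropomyosins, myosins and their partners, 9 rose and 0 fell (median 0.17). ACTA2, smooth muscle actin, read 6.88 and 6.86 in scramble and 8.89 and 9.05 in siRRM1 (2.10, SE 0.11, limma adjusted p = 0.000433). ARPC1B, a subunit of the Arp2/3 complex that branches actin, read 10.36 and 10.39 in scramble and 11.10 and 11.18 in siRRM1 (0.76, adjusted p = 0.00481), and ACTN1, an actin crosslinker, rose by 0.80 (adjusted p = 0.0224, 0.114 without scramble replicate 1, 0.115 without siRRM1 replicate 2). The family count was 3 without siRRM1 replicate 2, 2 without scramble replicate 1, 4 without scramble replicate 2 or either siRRM2 array, and 7 higher and 2 lower with median-centred arrays. ACTA2 is also on the list of stromal markers, of which 3 of 8 were tested and 1 rose, with summed signals of 436 and 441 in scramble and 803 and 903 in siRRM1. PDGFRB, DCN, COL1A2, TAGLN and COL3A1 were below the filter, and the part of stromal transcripts was not tested.

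Of 11 annexins and galectins, 4 rose and 0 fell (median 0.30, with 2 called without siRRM1 replicate 2 or scramble replicate 1). LGALS3, a galactose-binding lectin, rose from 9.81 and 10.26 to 11.10 and 11.29 (1.16, SE 0.16, adjusted p = 0.00740). ANXA4, which binds membranes in the presence of calcium, rose by 0.81 (adjusted p = 0.0102). Of 7 septins, GTP-binding proteins that form filaments, 3 rose (0 without siRRM1 replicate 2, 1 without either scramble array): SEPTIN10 by 0.62, SEPTIN8 by 0.58 and SEPTIN9 by 0.51. Of 10 phosphodiesterases and adenylate cyclases, which set cyclic AMP, 4 rose and all 10 had positive differences (median 0.30, with 1 called without siRRM1 replicate 2 or either scramble array). They included ADCY1, from 6.71 and 6.69 to 7.44 and 7.59 (0.81, adjusted p = 0.00683), and PDE3B (0.67, adjusted p = 0.0118).

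Of 36 dual-specificity and tyrosine phosphatases, 8 rose and 2 fell (median 0.09), with 0 falls without siRRM1 replicate 2 or scramble replicate 1. The rises numbered 5 without siRRM1 replicate 2 or either siRRM2 array, 3 without scramble replicate 1 and 4 without scramble replicate 2. PTPN22, a phosphatase of lymphocyte signalling, rose from 5.47 and 5.58 to 6.75 and 6.75 (1.23, adjusted p = 0.00438), and DUSP14, which dephosphorylates MAP kinases, rose from 8.39 and 8.39 to 9.13 and 9.25 (0.79, adjusted p = 0.00438). Of 23 potassium and chloride channels, 3 rose and 1 fell, the fall being called in none of the fits that left out scramble, siRRM2 or the second siRRM1 array. The calcium-activated potassium channels KCNN3, from 7.39 and 7.76 to 9.16 and 9.50 (1.75, SE 0.16, adjusted p = 0.00212), and KCNN4, from 8.10 and 8.40 to 9.19 and 9.54 (1.12, SE 0.15, adjusted p = 0.00683), were both above every scramble array. Both kept their calls whichever array was left out.

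The proteases CTSB and CTSA, a cathepsin and a carboxypeptidase of lysosomes, rose by 0.79 (adjusted p = 0.00740) and 0.63 (adjusted p = 0.00948), and 3 of 20 cathepsins and cystatins rose in all (2 without siRRM1 replicate 2 or either siRRM2 array, 1 without scramble replicate 1). Of 21 autophagy genes 3 rose, led by SQSTM1, a receptor for ubiquitinated cargo, from 9.65 and 9.61 to 10.50 and 10.53 (0.89, SE 0.09, adjusted p = 0.00289). The autophagy median was near 0 (10 genes positive and 11 negative), and 1 rose without siRRM1 replicate 2, either scramble array or either siRRM2 array. Of 28 peroxiredoxins, glutathione peroxidases and transferases, GPX1 rose by 0.81 (adjusted p = 0.00589) and GSTK1 by 0.70 (adjusted p = 0.00765), and both calls held whichever array was left out. These 2 rises were 7.14% of that family, near the 7.11% over all genes tested. LMNA, the gene of lamins A and C, rose by 0.69 (adjusted p = 0.00600).

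Of 29 SR proteins and hnRNPs, which bind pre-mRNA and direct splicing, 7 fell and 0 rose, 27 had negative differences, and the median was -0.27. HNRNPDL read 10.97 and 11.20 in scramble and 10.21 and 10.10 in siRRM1 (-0.93, SE 0.15, limma adjusted p = 0.0118). HNRNPD read 12.01 and 12.09 in scramble and 11.52 and 11.49 in siRRM1 (-0.55, SE 0.10, adjusted p = 0.0154), and HNRNPA2B1 fell by 0.51 (adjusted p = 0.0201). The siRRM1 arrays of HNRNPDL and HNRNPD were below both scramble arrays, and the siRRM2 arrays were below scramble as well. The family count was 0 without siRRM1 replicate 2 or scramble replicate 2, 1 without scramble replicate 1 and 5 without either siRRM2 array. Of 36 DEAD and DEAH box helicases, 4 fell and 0 rose (median -0.19), with 0 called when either scramble array, siRRM1 replicate 2 or either siRRM2 array was left out. DDX10, DDX1 and DDX39A fell by 0.46, 0.46 and 0.45. Of 30 snRNP and LSM core proteins, also of the splicing machinery, 1 fell and 0 rose (median -0.08), and that call was lost whichever array was left out.

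Of 40 tubulins and kinesins, 7 fell and 1 rose (median -0.09). TUBG2, a gamma-tubulin that starts microtubules, fell from 6.91 and 6.93 to 6.25 and 6.21 (-0.68, adjusted p = 0.0103), and KIF14, a mitotic kinesin, fell from 9.06 and 8.83 to 8.24 and 8.17 (-0.74, adjusted p = 0.0171). The falls numbered 0 without siRRM1 replicate 2 or scramble replicate 1, 2 without scramble replicate 2 and 4 without either siRRM2 array. Of 80 vesicle coat and SEC proteins, 7 fell (8.75%) and 1 rose (1.25%), against 5.66% and 7.11% over all genes tested, with a median of -0.04. SEC24D, which packs cargo into vesicles leaving the endoplasmic reticulum, fell from 9.63 and 9.39 to 8.77 and 8.50 (-0.88, SE 0.13, adjusted p = 0.00907, 0.0511 without scramble replicate 1), and AP4S1, an adaptor subunit, fell by 0.95 (adjusted p = 0.0115, 0.0658 without scramble replicate 1). Without siRRM1 replicate 2 or scramble replicate 2, 2 of the family fell, and without scramble replicate 1, 1 did.

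Of 41 nucleoporins and karyopherins, 3 fell (7.32%) and 1 rose (2.44%), against 5.66% and 7.11% over all genes tested (median -0.19). IPO7, an importin, fell from 10.93 and 10.85 to 10.07 and 9.95 (-0.88, SE 0.09, limma adjusted p = 0.00307) and kept its call in every fit that left out 1 array, the family count of falls being 1 without siRRM1 replicate 2 or scramble replicate 1. Of 26 USP deubiquitinases, 4 fell and 1, USP2, rose. USP24 fell from 7.79 and 7.70 to 7.11 and 6.77 (-0.80, adjusted p = 0.0117), and USP7, which acts on MDM2 and p53, fell by 0.40 (adjusted p = 0.0411). The falls numbered 0 without scramble replicate 1 and 1 without scramble replicate 2, siRRM1 replicate 2 or either siRRM2 array. Of 130 solute carriers, 10 fell (7.69%) and 5 rose (3.85%). Without siRRM1 replicate 2 these were 1 and 1, without scramble replicate 1 they were 1 and 2, without scramble replicate 2 they were 3 and 2, and without either siRRM2 array 5 and 4.

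Other families gave few calls or none, and the share of numbered zinc finger genes that fell (2.78%) was below that over all genes tested (5.66%). Among 144 numbered zinc finger genes 4 fell and 1 rose, with 1 to 3 falls and 0 rises when scramble, siRRM2 or the second siRRM1 array was left out. ABC transporters (21 genes), cytosolic aminoacyl-tRNA synthetases (16), vacuolar ATPase subunits (14), cytochromes P450 (13), CCT and prefoldin subunits (12) and HOX, FOX and SOX factors (22) had 0 calls by limma. At an unadjusted p under 0.05 they had 8, 3, 2, 0, 3 and 6, against 2446 of the 7936 genes tested.

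**Figure D5:**
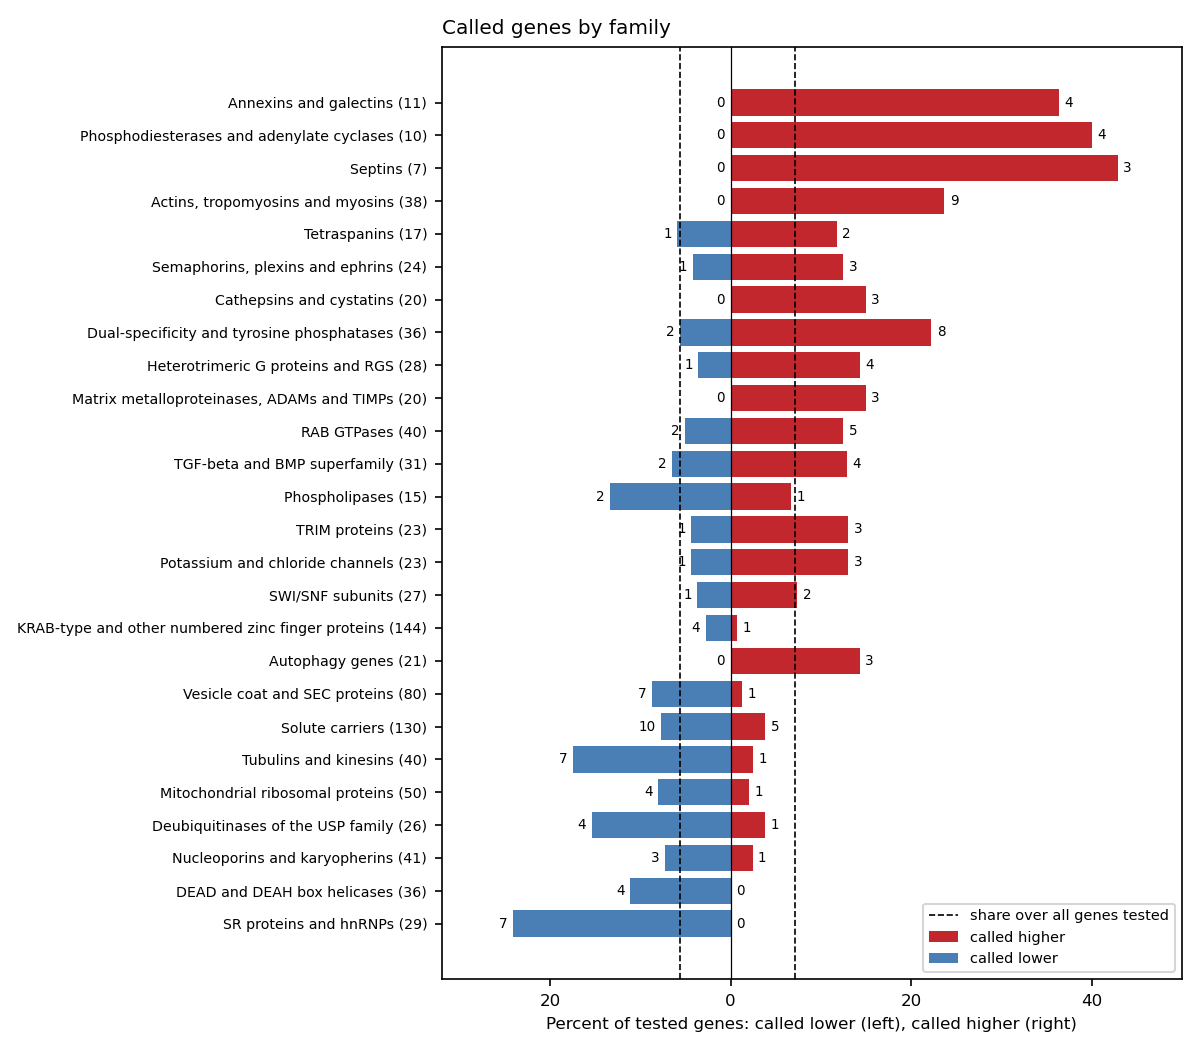
Percent of tested genes called higher (red, right) or lower (blue, left) in siRRM1 against scramble, for the reported families with at least 3 called genes, ordered by median difference. The number of genes tested stands in brackets and the number called beside each bar. Dashed lines mark 7.11% and 5.66%, the shares over all genes tested. Annexins and galectins (4 of 11 higher) lie at the top and SR proteins and hnRNPs (7 of 29 lower) at the bottom.

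Probe sets that list several genes are left out of the single-gene counts. Of 679 tested, 33 rose and 34 fell, 9.87% in all. Over all probe sets tested 12.2% were called (6.42% higher and 5.75% lower), so the share here was lower. The signal of such a probe set cannot be assigned to one gene. Probe sets 205967_at and 207046_at list the same 14 histone H4 genes and moved in opposite directions. The first read 11.75 and 11.92 in scramble and 10.84 and 10.54 in siRRM1 (-1.14, SE 0.16, limma adjusted p = 0.00858, 0.0531 without siRRM1 replicate 2). The second read 6.00 and 5.93 in scramble and 6.59 and 6.61 in siRRM1 (0.64, SE 0.09, adjusted p = 0.00831). Histone genes are packed in clusters and their coding sequences are near-identical, so which copies each probe set read is not known. Probe set 207156_at, which lists 6 histone H2A genes, rose from 6.64 and 6.17 to 8.04 and 7.95 (1.59, SE 0.15, adjusted p = 0.00243). It was the 1 call among 5 tested probe sets of this kind that list H2A cluster genes (median 0.22). Of 3 that list H4 cluster genes, 1 rose and 1 fell. The 4 that list H2B and the 1 that lists H3 cluster genes gave 0 calls.

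Probe set 206956_at lists PMF1, a kinetochore protein, BGLAP, the bone protein osteocalcin, and their readthrough transcript. It rose from 8.42 and 8.91 to 10.60 and 10.22 (1.75, SE 0.19, adjusted p = 0.00315), and the siRRM2 arrays stood at 10.58 and 10.55. Of 4 tested probe sets that list PDCD4, a translation inhibitor, with a microRNA gene, 3 rose, by 0.95, 0.77 and 0.70. The fourth, 212594_at, read 5.87 and 5.77 in scramble and 5.90 and 5.86 in siRRM1 (0.06, adjusted p = 0.790). The call at 0.70 was lost without either scramble array, and the call at 0.77 also without siRRM1 replicate 1. Probe set 209154_at, which lists TAX1BP3, a PDZ-domain protein, and its readthrough with P2RX5, rose from 9.43 and 9.29 to 10.46 and 10.50 (1.12, SE 0.09, adjusted p = 0.00181).

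Of 72 tested probe sets that list a small nucleolar RNA with its host gene, 7 fell and 0 rose (9.72% lower, median -0.09), against 5.75% lower over all probe sets and 5.01% over those that list several genes. The 7 came from 5 host genes, which had 11 tested probe sets of this kind. Small nucleolar RNAs guide chemical modification of ribosomal RNA and are cut from introns of their hosts, whose spliced messenger RNA is what such probe sets mainly read. RABGGTB, a subunit of the enzyme that prenylates RAB proteins and the host of SNORD45A to SNORD45C, fell on 3 probe sets. Its single-gene probe set 209180_at read 10.54 and 10.76 in scramble and 9.73 and 9.43 in siRRM1 (-1.07, SE 0.14, adjusted p = 0.00603), and the 2 that also list the small nucleolar RNAs fell by 0.84 and 0.68. The other 5 were on hosts EIF4A1 (-0.64), EIF4A2 (-0.59), NOP56 (-0.56 and -0.50) and DKC1 (-0.47). Other probe sets of these hosts were not called: EIF4A1 had differences of -0.10 on 211787_s_at (adjusted p = 0.485) and -0.08 on 201530_x_at (0.613), and DKC1 had -0.39 on 201478_s_at (0.0806) and -0.33 on 201479_at (0.0562). Of the 7 falls, 1 was called without siRRM1 replicate 2, 2 without scramble replicate 1, 3 without scramble replicate 2 and 4 without either siRRM2 array.

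Probe set 215629_s_at lists the microRNA gene MIR15A with its host DLEU2 and the related DLEU2L. It fell from 7.46 and 7.14 to 6.25 and 5.93 (-1.21, SE 0.15, limma adjusted p = 0.00516), and DLEU2 on 216870_x_at fell from 7.45 and 7.27 to 6.18 and 6.29 (-1.12, SE 0.13, adjusted p = 0.00469). The siRRM1 arrays were below scramble on both, and the siRRM2 arrays lay between. DLEU2 is a noncoding transcript that carries miR-15a and miR-16-1. The mature microRNAs were not measured by these arrays, and their sequences are shown because a fall of the host bears on that locus (RefSeq, GRCh38.p14, minus strand, chr13:50049167-50049188 and chr13:50049027-50049048). Capitals mark the seed, bases 2 to 8, which is the same in both.
miR-15a-5p: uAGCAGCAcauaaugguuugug
miR-16-5p: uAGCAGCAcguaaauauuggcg

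Of the 30 largest rises, 2 pairs of genes were neighbours in the genome, with starts within 50000 bases. FAS, a death receptor, and ACTA2 start 539 bases apart on chromosome 10 and are read in opposite directions. FAS read 5.17 and 4.64 in scramble and 7.85 and 7.04 in siRRM1 on 216252_x_at (2.54, SE 0.27, limma adjusted p = 0.00316), and rose on all 4 of its probe sets by 1.87 to 2.54. ACTA2 rose by 2.10, as given above. S100A8 and S100A9 start 33334 bases apart on chromosome 1.

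The 250 bases before the starts of FAS (chr10:88990548-88990797, plus strand) and ACTA2 (chr10:88991338-88991587, minus strand) are shown since these neighbouring genes both rose. IL10 (chr1:206772495-206772744, minus strand) and TNFSF9 (chr19:6530776-6531025, plus strand) are shown as large rises with a TATA-like match near the start. Sequences are from RefSeq (GRCh38.p14) and run 5′ to 3′ on the gene's strand. Capitals mark 3 motifs, each searched on both strands. The first is TATAAA, known from core promoters of regulated genes. The second is GGGCGG, which SP1-type factors can bind. The last is TGANTCA, which resembles the AP-1 site. That last motif reads the same on both strands, and none of the 3 overlaps another.
FAS: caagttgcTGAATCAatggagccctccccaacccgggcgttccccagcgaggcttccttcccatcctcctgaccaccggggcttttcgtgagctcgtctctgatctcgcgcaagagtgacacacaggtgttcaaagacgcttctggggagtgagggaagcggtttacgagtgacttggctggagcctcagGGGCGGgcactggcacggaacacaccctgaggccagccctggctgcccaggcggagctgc
ACTA2: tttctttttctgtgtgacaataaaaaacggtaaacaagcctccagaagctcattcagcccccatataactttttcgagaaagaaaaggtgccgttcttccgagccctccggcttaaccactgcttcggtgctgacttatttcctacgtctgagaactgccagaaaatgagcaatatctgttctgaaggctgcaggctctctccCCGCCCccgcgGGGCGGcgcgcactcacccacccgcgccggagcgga
IL10: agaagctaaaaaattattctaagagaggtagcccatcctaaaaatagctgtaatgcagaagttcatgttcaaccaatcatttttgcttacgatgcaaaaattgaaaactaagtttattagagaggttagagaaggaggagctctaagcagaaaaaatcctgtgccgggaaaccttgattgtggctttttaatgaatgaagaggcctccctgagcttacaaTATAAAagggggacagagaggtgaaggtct
TNFSF9: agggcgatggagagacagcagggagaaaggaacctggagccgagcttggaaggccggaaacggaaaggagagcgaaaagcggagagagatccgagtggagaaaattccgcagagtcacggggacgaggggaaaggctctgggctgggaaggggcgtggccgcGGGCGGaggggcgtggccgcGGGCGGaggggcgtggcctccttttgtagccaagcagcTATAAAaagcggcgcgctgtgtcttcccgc

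The window of FAS held a TGANTCA and a GGGCGG, and that of ACTA2 held GGGCGG matches on both strands and no TATAAA. IL10 and TNFSF9 each held TATAAA, beginning 30 bases before the start, and TNFSF9 held GGGCGG too. Over the 29 matched promoters of the 30 largest rises, TATAAA was in 6 (20.7%), TGANTCA in 5 (17.2%) and GGGCGG in 13 (44.8%). Over the 6554 matched promoters of genes tested the shares were 5.34%, 3.84% and 68.3%, and over all 27305 RefSeq promoters they were 11.1%, 6.60% and 42.3%. The genes tested were filtered on signal. Of the 30 rises, 14 passed that filter only through the groups where they were high, IL10 and TNFSF9 among them. The sets are therefore unlike, and no conclusion is drawn from these shares. The largest rises had a median of 5 CG dinucleotides in the window, against 21 for genes tested and 11 for all promoters. Their median scramble signal was 5.57 against 7.83 for all probe sets tested, and a relation between signal and CG count was not tested. The 24 matched promoters of the 30 largest falls held TATAAA in 3 (12.5%), TGANTCA in 1 (4.17%) and GGGCGG in 12 (50%), with a median of 18 CG dinucleotides. Among all called genes whose arrays did not overlap, the 500 matched rises had a median of 21 CG dinucleotides, TATAAA in 8.2%, TGANTCA in 6% and GGGCGG in 67.4%. These matches are descriptions of letters in a window, not of binding sites.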

How the data were processed

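Gene expression was measured on 6 oligonucleotide arrays of NCI-H929 cells, 2 per siRNA group, 24 h after electroporation. The authors deposited log2 signals for 22277 probe sets. The way signals were summarised and normalized is not stated (not given in the sources used here). Values were used as deposited. The number of arrays limits the precision. Genes were named from the platform annotation: 19064 probe sets had 1 symbol (19052 matched the RefSeq table), 1043 several and 2108 none, and 62 controls were left out. Probe sets whose mean over the 6 arrays reached the 40th percentile (log2 5.44) were tested, 13308 in all. No probe set coordinates are given.

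limma 3.58.1 in R 4.3.3 (lmFit, eBayes; 3 residual and 4.29 prior degrees of freedom) fitted all 6 arrays. All p-values were two-sided and adjusted by Benjamini-Hochberg over all probe sets, or over all pairs for differences between probe sets of a gene. The treat test used 1.5-fold. Gene counts take the probe set with the highest mean. Scripts were tested on simulated data.

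Named genes are RRM1, RRM2, the 30 largest rises and falls with siRRM1 and scramble arrays apart, the members of each family with the smallest adjusted p (at most 3 called each way, or 2 where none was called), the 10 largest rises and falls among probe sets of several genes, the 15 called pairs with the largest difference, all markers, and 5 dim probe sets in each direction. RECK, the H4 probe set 207046_at, 3 PDCD4 probe sets, 2 EIF4A1 probe sets, and the NOP56 and DKC1 probe sets fall outside this rule and were chosen after their values were seen. Some items are not reported here. Members and lists were chosen with earlier results of these data known. The replicate numbers are shared across groups, and the labels do not say that they pair samples. With 2 numbers, pairing could not be established.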

Additional observations from a re-analysis of the deposited data

How the results depend on the processing

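Of the 289 probe sets named, 0 changed direction while called in any of the alternative fits. The count of probe sets called in siRRM1 against scramble (1619) was 923 with the 4 siRRM1 and scramble arrays alone, and ranged from 386 to 2003 when 1 array was left out, with rises from 298 to 816 and falls from 88 to 1187. With the 4 arrays alone 343 fell. With the replicate number as a block it was 2746 (1301 higher and 1445 lower). The block also gave 141 for the 1.5-fold test, 101 against siRRM2 and 32 pairs of probe sets. The correlations of replicate differences between groups were 0.35, 0.36 and 0.21, and 2 numbers cannot establish pairing. The 1.5-fold count (67) was 42 with a filter at the 60th percentile, ranged from 23 to 47 when 1 array was left out, and was 295 at a 1.2-fold and 14 at a 2-fold minimum. The count against siRRM2 (5) was 3 with the 60th percentile filter, 16 with a trend in eBayes and 2 to 5 when 1 array was left out. The 15 pairs became 4 with the 4 arrays alone, 54 with no filter, 3 with the 60th percentile filter and 0 to 14 when 1 array was left out. Leaving out either siRRM2 array removes the spread of that group, so both give the calls of the 4-array fit. Centring each array on its median moved the median of all probe sets from -0.02 to -0.06 and the share of calls that were rises from 52.7% to 41.0%. Beyond the values above, the cause of each shift was not tested. With 2 arrays a group, many small differences passed or missed the threshold with the choice of arrays. The signal over background is not given, so the size of a rise from a low scramble signal is uncertain.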

Other observations

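Among single-gene probe sets whose mean lay below the filter, and which were therefore not tested, the largest differences were again on the higher side. RGS1, a regulator of G protein signalling in B cells, read 3.16 and 4.03 in scramble and 6.18 and 8.04 in siRRM1 on 216834_at. TRIM22, an interferon-inducible ubiquitin ligase, read 3.03 and 3.20 in scramble and 5.51 and 5.70 in siRRM1 on 213293_s_at. BLNK, an adaptor of the B cell receptor, read 3.58 and 3.20 in scramble and 5.22 and 5.44 in siRRM1. These arrays did not overlap. SMARCA1, a chromatin remodeller, read 4.29 and 4.11 in scramble and 5.84 and 5.69 in siRRM1, and CXCL8, a chemokine, read 3.33 and 3.33 in scramble and 3.98 and 6.09 in siRRM1. The CXCL8 difference rested mainly on siRRM1 replicate 2.

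On the lower side, RRP15, a nucleolar protein of ribosome assembly, read 6.03 and 5.94 in scramble and 4.50 and 4.55 in siRRM1. CUX2, a homeobox factor, read 5.61 and 5.70 in scramble and 4.82 and 4.29 in siRRM1. DKK1, a secreted WNT inhibitor that myeloma cells can release, read 5.24 and 5.91 in scramble and 4.50 and 4.49 in siRRM1, and the siRRM2 arrays read 4.47 and 4.72. The siRRM1 arrays of these 3 genes lay below both scramble arrays. KPNA5, an importin, read 5.12 and 5.02 in scramble and 4.29 and 3.84 in siRRM1. These are values with no test.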
